A study of Saccharomyces cerevisiae with 12 samples.

Results

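The KRE2 mannosyltransferase family was followed through 10 genes of the budding yeast Saccharomyces cerevisiae, KRE2, KTR1, KTR2, KTR3, KTR4, KTR5, KTR6, KTR7, YUR1 and HOC1, out of 7192 features in the deposited count table. They were taken by their systematic names and not by any measured value. RNA was sequenced from 12 samples, 6 exposed to a sugar-binding protein (lectin) of the clam Cyclina sinensis and 6 without it. Both groups were wild type and had been grown to mid-exponential phase in the rich medium YPD, with shaking (200 rpm) at 30 °C. The strain background, the mating type, the lectin dose, the length of the incubation and any buffer given to the untreated cells are not given in the sources used here. Samples are named by group and by the number in their titles: lectin 2, 3, 4, 5, 6 and 8, and control 2, 3, 4, 6, 7 and 8.

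Yeast cell wall proteins carry mannose chains on asparagine (N-linked) and on serine or threonine (O-linked). The chains are started in the endoplasmic reticulum and lengthened in the Golgi, where type II membrane enzymes take mannose from GDP-mannose and add it to the growing chain. Kre2 and its relatives are such enzymes and extend both kinds of chain with overlapping duties. The study's title names a lectin that binds N-acetylgalactosamine and mannose.

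The label was first compared with the sequences. All 10 genes have 1 coding exon and overlap no other gene in the NCBI RefSeq annotation of the R64 assembly. Among the 9 members other than HOC1, protein identity over a global alignment was 25.6% to 61.6% in 36 pairs, with a median of 36.4%. Identity is given as a percentage of the length of the shorter protein. HOC1 stood apart, with 18.2% to 23.7% identity to those 9 proteins and 32.6% to Och1, the enzyme that starts the N-linked outer chain. HOC1 encodes a subunit of a Golgi mannan polymerase complex, and it is described here with the family because the label lists it. A stretch of 12 codons showed the relation among the other 9 members, and it was picked as the most conserved ungapped stretch of that length in their protein alignment. It is shown because it separates KTR6 from the rest, with bases in capitals where all 9 genes had the same base.
KRE2: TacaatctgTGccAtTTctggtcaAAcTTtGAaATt
KTR1: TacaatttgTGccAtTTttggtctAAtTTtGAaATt
KTR2: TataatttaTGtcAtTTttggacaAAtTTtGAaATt
KTR3: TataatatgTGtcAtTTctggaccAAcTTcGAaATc
KTR4: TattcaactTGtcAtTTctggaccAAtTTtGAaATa
KTR5: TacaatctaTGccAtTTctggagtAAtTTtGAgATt
KTR6: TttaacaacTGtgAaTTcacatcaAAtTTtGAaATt
KTR7: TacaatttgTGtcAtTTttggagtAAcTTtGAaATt
YUR1: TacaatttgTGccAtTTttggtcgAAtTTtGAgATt
The KRE2 line is chrIV:1422111-1422146 on the plus strand (R64) and the KTR6 line is chrXVI:457454-457489 on the minus strand. All 9 genes had the same base at 14 of the 36 positions and encoded the same residue in 6 of the 12 codons. The 8 members other than KTR6 encoded the same residue in 9 codons, and KTR6 encoded another residue in 3 of those. KTR6, also called MNN6, is the probable mannosylphosphate transferase of the family, whereas its relatives are mannosyltransferases, some of them putative.

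Total counts were 17303313 to 21354011 per sample. Within groups, no library was a repeat of another: the chi-square statistic divided by its degrees of freedom was 6.78 to 59.1 in 30 pairs of samples. The pairs with lectin 5 were at 26.1 to 59.1, the other lectin pairs at 6.78 to 31.5 and the control pairs at 7.83 to 25.0. Pairs across the groups were not compared in this way. Every member passed the filter on low counts, and the lowest raw count of any member in any sample was 943. Across the 10 genes the coefficient of variation between control samples was 1.76% to 6.52%, and counting error alone would give 1.15% to 3.11%. In KTR4 the variation was close to the counting error (1.76% against 1.67%), and in YUR1 it was below it (2.36% against 3.06%). Lectin 5 was the largest library, and it lay nearer to the controls than the other lectin samples did in several members described below. Of the marker genes of the yeast cell types (5 for a cells, 4 for alpha cells, 4 for haploid cells and 5 for meiosis) 0 were at a count of 0. The summed a-cell markers were at 1602 to 1666 normalized counts in lectin and 1907 to 2029 in control samples, and the alpha-cell markers at 2358 to 2468 in lectin and 2572 to 2761 in control samples. The alpha-cell list went both ways: MF(ALPHA)1 fell (log2 fold change -0.74), SAG1 rose (0.16), and STE3 (0.05) and MF(ALPHA)2 (0.04) did not pass the test. The haploid markers were at 1437 to 1545 in lectin and 1558 to 1783 in control samples, and the meiosis markers at 2406 to 2809 in lectin and 2076 to 2237 in control samples. Among the haploid markers GPA1 alone was called (log2 fold change -0.20), and among the meiosis markers only IME1 (0.40) and SPS1 (0.18) were. All a-cell markers except STE6 (-0.02) were called lower. The sums therefore do not stand for a change in every marker. The part of these shifts in the results below was not tested.

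In lectin-treated cells 2 of the 10 genes rose, 4 fell and 4 did not pass the test. KTR2 and KTR5 rose, and KRE2, KTR1, KTR4 and HOC1 fell. The fitted changes ran from -15.8% (KRE2) to 30.4% (KTR2), and 0 members passed the study's fold threshold of an absolute log2 fold change of 1. A gene was called at an adjusted p under 0.05 in the DESeq2 Wald test over 6237 tested genes, of which 31.5% were called in all, 15.4% as higher and 16.1% as lower, and 0.257% passed the fold threshold as well. With 10 genes, the count of 6 is given beside that 31.5% and nothing particular to the family is read from it. The median log2 fold change of the 10 genes was -0.04, with a range from -0.25 to 0.38, and the median of all tested genes was 0.00. edgeR's quasi-likelihood test called the same 6 members, and 29.1% of all genes. Each library pooled the RNA of a whole sample, so fewer cells with a transcript and less transcript per cell cannot be told apart. Counts are relative to the whole library, so a change in the total RNA per cell cannot be seen in them.

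**Figure D1:**
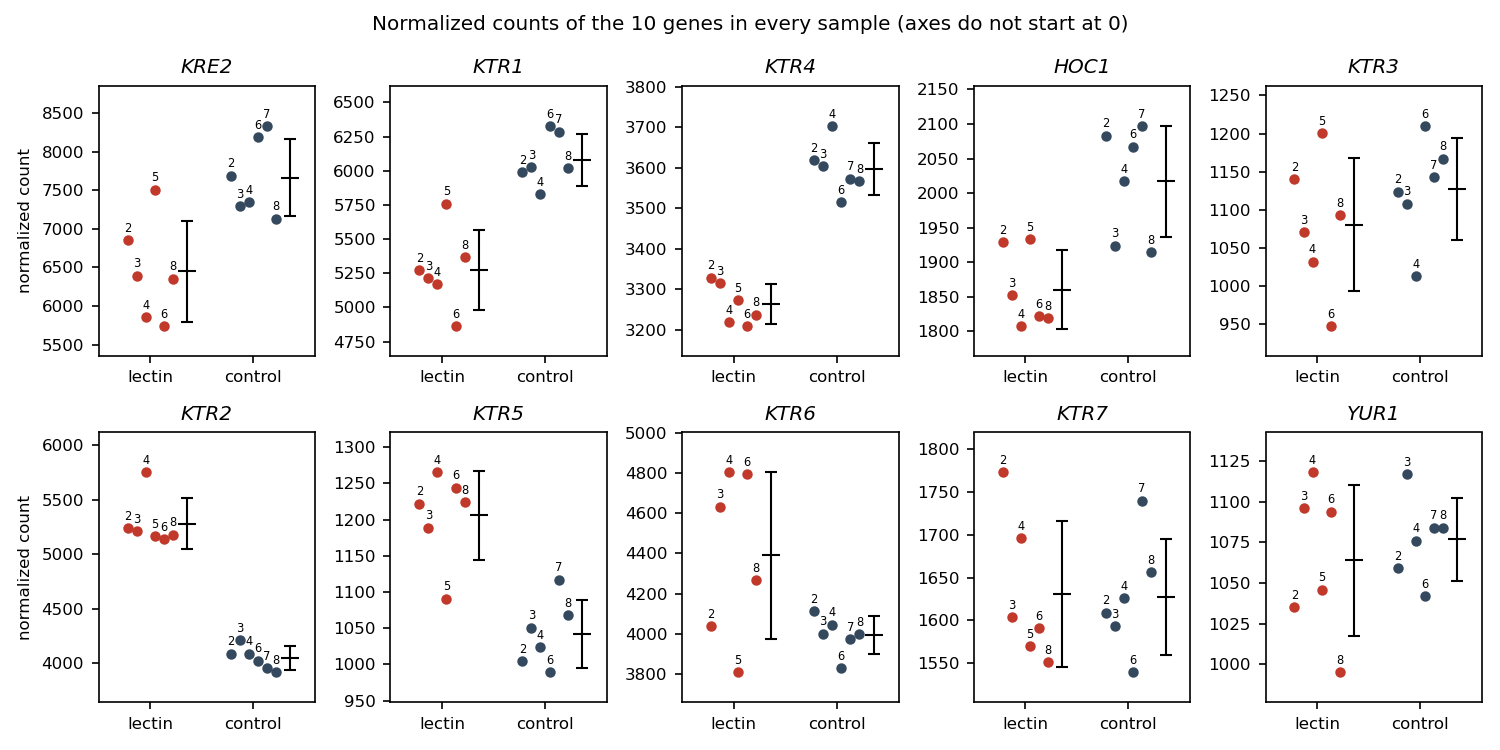
Normalized counts (counts divided by the DESeq2 size factor, vertical axes that do not start at 0) of the 10 genes in each of the 6 lectin and 6 control samples. Points are samples with their replicate number, the horizontal mark is the mean and the bar 1 SD. KTR2, KTR1 and KTR4 show no overlap between the groups. Lectin 5 lies on the control side of the other lectin samples in KRE2, KTR1, KTR3, KTR5, KTR6 and HOC1.

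KTR2 (YKR061W, chrXI:557677-558954), a Golgi mannosyltransferase that acts on N-linked chains, had the largest change of the family. It was at 5139 to 5748 normalized counts in lectin samples with a median of 5195, and at 3918 to 4213 in control samples with a median of 4058. Every lectin sample lay above every control sample, and lectin 4 was the highest. The log2 fold change was 0.38 ± 0.037 (SE, n = 6 each; DESeq2 adjusted p = 2.34e-22, edgeR adjusted p = 2.51e-06), a rise of 30.4%, and KTR2 ranked 35 of the 6237 genes by p. Groups without overlap were seen in 3 members, KTR2, KTR1 and KTR4, and in 12.6% of all tested genes (5.85% with lectin higher and 6.72% with lectin lower).

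KTR5 (YNL029C, chrXIV:577205-578773), a putative mannosyltransferase, was at 1091 to 1265 normalized counts in lectin samples with a median of 1223, and at 989 to 1117 in control samples with a median of 1038. The groups overlapped because of lectin 5, the lowest lectin sample. The log2 fold change was 0.21 ± 0.049 (SE, n = 6 each; DESeq2 adjusted p = 0.000194), a rise of 15.7%. Without lectin 5 the groups did not overlap and the log2 fold change was 0.24.

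KRE2 (YDR483W, chrIV:1421157-1422485), also called MNT1, gives the family its name and extends O-linked chains as an alpha-mannosyltransferase. It was at 5743 to 7506 normalized counts in lectin samples with a median of 6374, and at 7132 to 8333 in control samples with a median of 7518. Lectin 5, the highest lectin sample, lay within the control range, and the other 5 lectin samples lay below every control sample. The log2 fold change was -0.25 ± 0.066 (SE, n = 6 each; DESeq2 adjusted p = 0.00124), a change of -15.8%, and -0.30 without lectin 5 (DESeq2 adjusted p = 2.3e-06).

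KTR1 (YOR099W, chrXV:511825-513006), an alpha-mannosyltransferase for O- and N-linked chains, was at 4864 to 5758 normalized counts in lectin samples with a median of 5243, and at 5827 to 6327 in control samples with a median of 6022. No control sample was as low as any lectin sample, with lectin 5 again the highest of its group. The log2 fold change was -0.20 ± 0.043 (SE, n = 6 each; DESeq2 adjusted p = 2e-05).

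KTR4 (YBR199W, chrII:618909-620303), a putative mannosyltransferase, had the tightest groups of the family. It was at 3209 to 3328 normalized counts in lectin samples with a median of 3255, and at 3514 to 3703 in control samples with a median of 3589. The groups did not overlap, and lectin 5 lay within the other lectin samples. Its log2 fold change was -0.14 ± 0.029 (SE, n = 6 each; DESeq2 adjusted p = 1.22e-05), a change of -9.28%.

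HOC1 (YJR075W, chrX:573981-575171), the Och1 relative, was at 1808 to 1933 normalized counts in lectin samples with a median of 1837, and at 1915 to 2097 in control samples with a median of 2042. Lectin 2 and lectin 5 overlapped with control 3 and control 8. Its log2 fold change was -0.12 ± 0.040 (SE, n = 6 each; DESeq2 adjusted p = 0.0154), a change of -7.73%. The call was lost without control 2, where the DESeq2 adjusted p was 0.0515.

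KTR6 (YPL053C, chrXVI:457118-458458), the probable mannosylphosphate transferase, did not pass the test in all 12 samples. It was at 3808 to 4802 normalized counts in lectin samples with a median of 4450, and at 3829 to 4111 in control samples with a median of 3999. Lectin 3, 4, 6 and 8 lay above every control sample, lectin 2 lay within the control range and lectin 5 below it. Its log2 fold change was 0.14 ± 0.058 (SE, n = 6 each; DESeq2 adjusted p = 0.057). It was 0.17 without lectin 5 (DESeq2 adjusted p = 0.00187) and 0.16 without lectin 2 (DESeq2 adjusted p = 0.0265), so the call rested on which lectin samples were kept.

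The remaining members had overlapping groups. KTR3 (YBR205W, chrII:633622-634836), a putative alpha-mannosyltransferase for both kinds of chain, averaged 1081 ± 87.3 normalized counts in lectin and 1127 ± 66.5 in control samples (SD, n = 6 each). Its log2 fold change had a 95% interval of -0.18 to 0.06 (DESeq2 adjusted p = 0.486). KTR7 (YIL085C, chrIX:200490-202043), a putative mannosyltransferase, averaged 1631 ± 85.7 in lectin and 1627 ± 67.5 in control samples (SD, n = 6 each), with an interval of -0.09 to 0.09 on the log2 scale. YUR1 (YJL139C, chrX:151713-152999), a mannosyltransferase of N-linked chains, averaged 1064 ± 46.4 in lectin and 1077 ± 25.5 in control samples (SD, n = 6 each), with an interval of -0.10 to 0.07 on the log2 scale. The interval of KTR3 includes the value of HOC1, and those of KTR7 and YUR1 end closer to 0 than that value.

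Lectin 5 did not sit at the same place in every member. With the control mean set to 0% and the mean of the 5 other lectin samples to 100%, it lay at 11.2% in KRE2, 26.4% in KTR5, 35.6% in KTR1 and 48.9% in HOC1, but 89.1% in KTR2 and 96.4% in KTR4. In KTR6 it lay at -35.8%, on the far side of the control mean. With lectin 5 left out, 7 members were called (38.8% of all genes), namely the same 6 and KTR6, and 5 members had groups without overlap, as did 19% of all tested genes with that sample left out. Its position in these genes is a description, and its relation to the larger depth of that library was not tested.

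Most of the family consists of duplicate pairs left by the ancient whole-genome duplication of yeast, and the reference notes name KTR2 with YUR1, KTR6 with KRE2 and KTR5 with KTR7. The copies of each pair did not change alike: the ratio of KTR2 to YUR1, of KTR6 to KRE2 and of KTR5 to KTR7 was higher in lectin-treated cells. The ratio of the raw counts within a sample was used, since a scaling factor of the library cancels in it. It was tested with limma on the log2 ratio for all 501 duplicate pairs with both copies tested, of which 38.1% passed an adjusted p under 0.05, so unequal change of duplicates was common in these data. This comparison was added after the values of the members were seen. The copy on top of each ratio was set by hand and had the higher fitted fold change. The shared direction of the ratios therefore has no meaning of its own. The ratios rest on the same counts as the fold changes of the members and are not separate support for them.

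The count of KTR2 was 4.7 to 5.2 times that of YUR1 in lectin samples with a median of 5.0, and 3.62 to 3.87 times in control samples with a median of 3.79. The groups did not overlap, and the difference of the log2 ratio was 0.40 ± 0.044 (SE, n = 6 each; limma adjusted p = 2.02e-05). KTR2 carried the change, since YUR1 itself did not pass the test. The products had 61.6% identity over the length of the shorter protein, the highest in the family.

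The count of KTR6 was 0.507 to 0.834 times that of KRE2 in lectin samples with a median of 0.698, and 0.467 to 0.561 times in control samples with a median of 0.541. All lectin samples except lectin 5 lay above every control sample. The difference of the log2 ratio was 0.38 ± 0.11 (SE, n = 6 each; limma adjusted p = 0.0137), and 0.47 without lectin 5 (limma adjusted p = 0.00128). The ratio thus passed the test while KTR6 alone did not, with KRE2 lower and KTR6 at a fitted log2 fold change of 0.14. The products had 39.8% identity over the length of the shorter protein and, as the printed stretch shows, differ where the other members are alike.

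The count of KTR5 was 0.690 to 0.789 times that of KTR7 in lectin samples with a median of 0.743, and 0.624 to 0.660 times in control samples with a median of 0.642. All lectin samples lay above all control samples. How many of all duplicate pairs had ratios without overlap was not counted. The lack of overlap here and for KTR2 over YUR1 is therefore only a description. The difference of the log2 ratio was 0.21 ± 0.046 (SE, n = 6 each; limma adjusted p = 0.00339). The products had 54.2% identity over the length of the shorter protein.

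**Figure D2:**
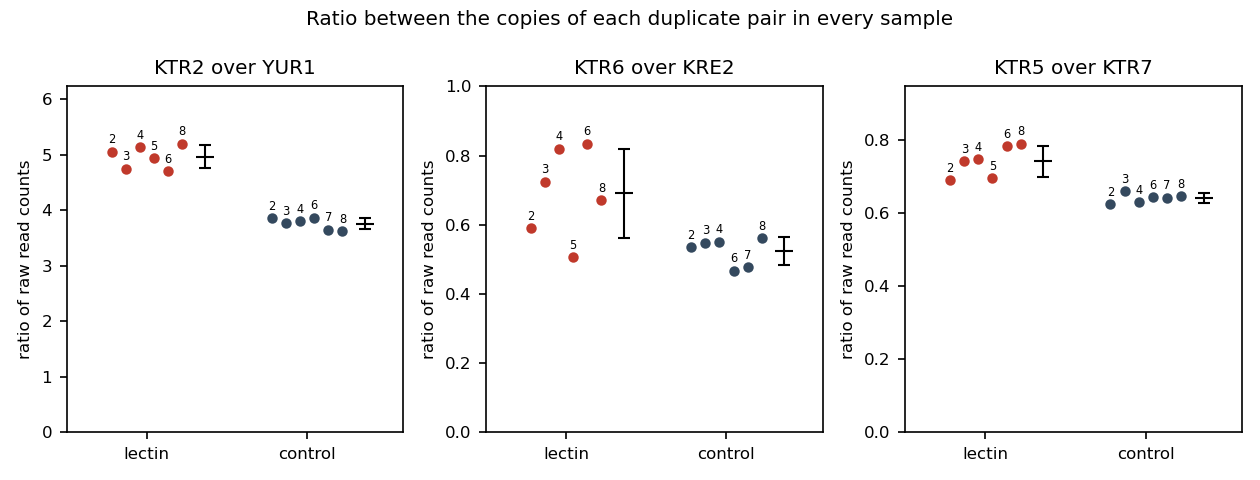
Ratio of the raw read counts of the copies of each duplicate pair (vertical axes from 0) in the 6 lectin and 6 control samples, with replicate numbers, means and 1 SD. The ratio of KTR2 to YUR1 averaged 4.97 in lectin and 3.76 in control samples, and lectin 5 is the 1 lectin sample within the control range for KTR6 over KRE2.

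Reads shared between members depend on how alike their sequences are. The longest nucleotide match of any member to another gene was 1062 bases at 66.4% identity, between KTR5 and KTR7, and 0 members had a match of at least 50 bases at 90% identity or more.

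Levels could be set side by side per length, as counts per kilobase of coding sequence, scaled to library totals of 1e6 counts. KRE2 averaged 263 ± 23.9 in lectin and 313 ± 15.9 in control samples, and KTR2 224 ± 8.92 in lectin and 172 ± 6.78 in control samples (SD, n = 6 each). The order of the mean levels per length was KRE2, KTR1, KTR2, KTR6, KTR4, HOC1, KTR7, KTR3, YUR1 and KTR5 in both groups. In control samples the ranges of neighbours in this order overlapped for KTR2 and KTR6, for KTR7 and KTR3, and for KTR3 and YUR1, and the other neighbours were apart. In lectin samples they overlapped for KRE2 and KTR1, for KTR1 and KTR2, for KTR3 and YUR1, and for YUR1 and KTR5. In lectin 4 KTR2, at 241, was above KRE2, at 236, and KTR1, at 234. KTR5, the lowest, averaged 41.7 ± 2.52 in lectin and 36.1 ± 1.51 in control samples (SD, n = 6 each).

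The make-up of the family's transcripts is described by shares of their sum. Summed over the 10 genes, the level per length was 1292 to 1322 in lectin and 1317 to 1364 in control samples. KTR2 made up 17.1% ± 0.775 of that sum in lectin and 12.8% ± 0.458 in control samples, KRE2 20.1% ± 1.69 in lectin and 23.3% ± 1.03 in control samples, and KTR1 18.5% ± 0.703 in lectin and 20.7% ± 0.372 in control samples (SD, n = 6 each). The range of the KTR2 share was 16.2% to 18.5% in lectin and 12.1% to 13.4% in control samples. These sums are descriptions of the members and carry no test.

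**Figure D3:**
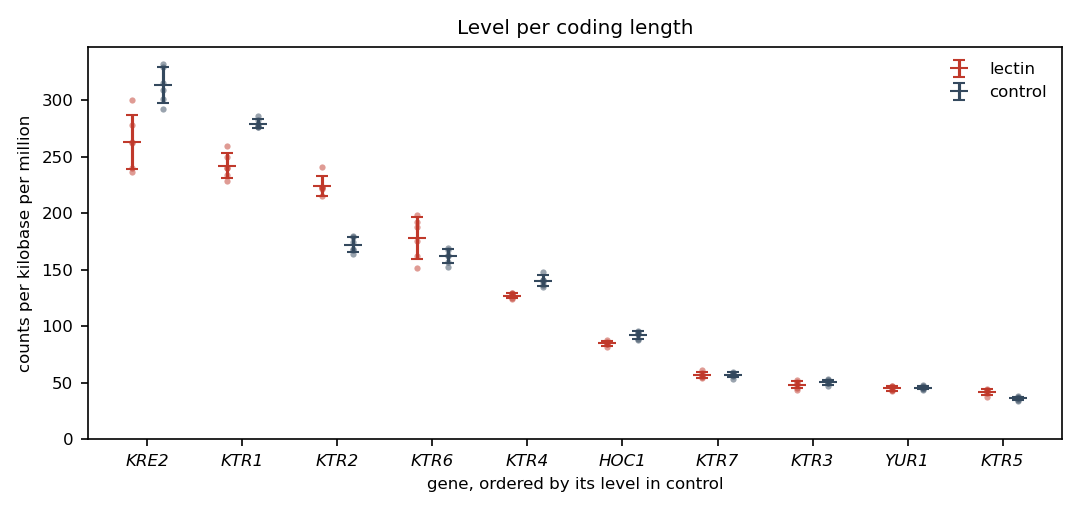
Counts per kilobase of coding length, scaled to equal library totals (vertical axis from 0) of the 10 genes, ordered by their control mean, with lectin to the left of control. Points are samples, marks are means and bars 1 SD (n = 6 each); KRE2 averages 263 in lectin and 313 in control samples and KTR2 224 in lectin and 172 in control samples.

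The family works beside other enzymes of mannan synthesis, taken from lists of 26 genes. Of these, 2 rose, 10 fell and 14 did not pass the test, beside 15.4% higher and 16.1% lower among all tested genes, and the median log2 fold change was -0.08 against 0.00 over all tested genes. The N-linked outer chain list held 2 higher, 4 lower and 4 not called genes of 10 (median -0.07). The O-mannosylation list held 0 higher, 3 lower and 6 not called of 9 (median -0.06), and the mannose supply list 0 higher, 3 lower and 4 not called of 7 (median -0.16).

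In the N-linked outer chain, MNN1, whose product caps chains with a terminal mannose, fell. It was at 3471 to 3766 normalized counts in lectin and 4676 to 5411 in control samples, a log2 fold change of -0.43 ± 0.043 (SE, n = 6 each; DESeq2 adjusted p = 2.94e-22). OCH1, which starts the outer chain, was at 2309 to 2815 in lectin and 2958 to 3363 in control samples, a log2 fold change of -0.29 ± 0.055 (SE, n = 6 each; DESeq2 adjusted p = 1.74e-06). Neither gene had overlapping groups. MNN4, a positive regulator of mannosylphosphate transfer that acts with the KTR6 product, rose. It was at 10262 to 11624 normalized counts in lectin and 8496 to 9455 in control samples, a log2 fold change of 0.29 ± 0.043 (SE, n = 6 each; DESeq2 adjusted p = 3.29e-10). The groups did not overlap, and lectin 5 was the lowest lectin sample. It was also the lowest for KTR6 and for other genes of the lists, among them MNN1, ANP1 and MNT2. This position is therefore not particular to MNN4 and KTR6.

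Of the 4 partners of HOC1 in its Golgi complex, 1 rose, 1 fell and 2 did not pass the test. ANP1 rose, at 2386 to 2810 normalized counts in lectin and 2135 to 2433 in control samples, a log2 fold change of 0.20 ± 0.050 (SE, n = 6 each; DESeq2 adjusted p = 0.000629). MNN10 fell, at 1498 to 1620 in lectin and 1662 to 1771 in control samples, a log2 fold change of -0.15 ± 0.037 (SE, n = 6 each; DESeq2 adjusted p = 0.000625). MNN9 and MNN11 did not pass the test, with log2 fold changes of 0.06 ± 0.050 and -0.09 ± 0.051 (SE, n = 6 each).

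For O-linked chains, the largest changes were in MNT2 and MNT4, genes of the MNN1 family. MNT2, which adds mannose at the end of O-linked chains built by Kre2, was at 1180 to 1416 normalized counts in lectin and 1841 to 2056 in control samples. Its log2 fold change was -0.56 ± 0.050 (SE, n = 6 each; DESeq2 adjusted p = 7.77e-27). MNT4, a putative relative, was at 747 to 1057 in lectin and 1131 to 1220 in control samples, with a log2 fold change of -0.40 ± 0.077 (SE, n = 6 each; DESeq2 adjusted p = 2.32e-06). The groups did not overlap in either gene. Of the 6 PMT genes, which attach the initial mannose in the endoplasmic reticulum, PMT4 alone was called, with a log2 fold change of -0.14 ± 0.046 (SE, n = 6 each; DESeq2 adjusted p = 0.0117).

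Transcripts of 3 of the 7 mannose supply genes fell and 4 did not pass the test. VRG4, the transporter that brings GDP-mannose into the Golgi for these enzymes, was at 3245 to 3778 normalized counts in lectin and 4469 to 4901 in control samples, a log2 fold change of -0.42 ± 0.044 (SE, n = 6 each; DESeq2 adjusted p = 1.99e-19). SEC53, a phosphomannomutase on the way to GDP-mannose, was at 3851 to 4312 in lectin and 5113 to 5715 in control samples, a log2 fold change of -0.41 ± 0.044 (SE, n = 6 each; DESeq2 adjusted p = 2.43e-18). The groups did not overlap in either gene. PMI40, which makes mannose phosphate, had overlapping groups and a log2 fold change of -0.19 ± 0.069 (SE, n = 6 each; DESeq2 adjusted p = 0.0259). Its call was lost in 5 of the 12 fits that left out 1 sample, those without lectin 2, 4 or 8 or control 2 or 6, with DESeq2 adjusted p-values of 0.0543 to 0.0895. PSA1, which makes GDP-mannose itself, averaged 38110 ± 1540 in lectin and 38030 ± 1070 in control samples (SD, n = 6 each), with a log2 fold change of 0.00 ± 0.035 (SE).

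**Figure D4:**
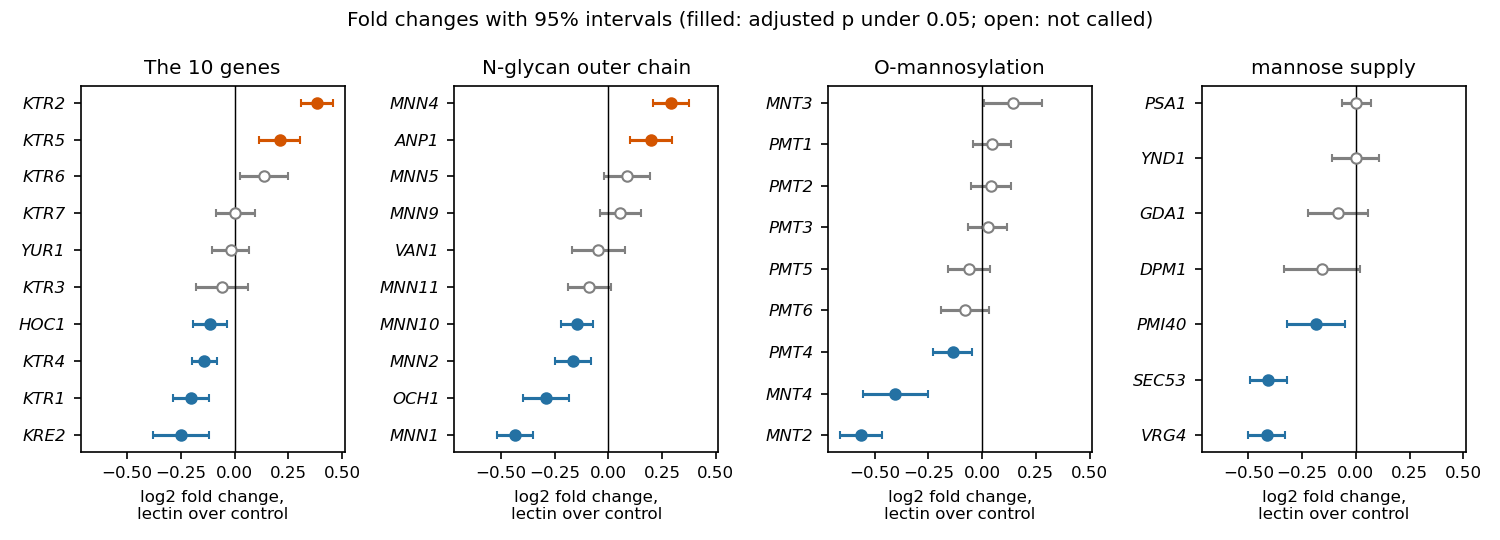
Log2 fold changes, lectin over control, with 95% intervals for the 10 genes and the 3 lists of other mannan genes, from the DESeq2 fit on 6 lectin and 6 control samples. Filled points passed an adjusted p under 0.05 (orange higher, blue lower) and open points did not; KTR2 at 0.38 lies at the top of the first panel and KRE2 at -0.25 at its bottom.

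Genes with the most similar profile over the 12 samples were looked up for the members with the smallest p, KTR2, KTR4 and KTR1, by the Pearson correlation of log2(normalized count + 1) among 5833 other genes with a mean of at least 50. The difference between the groups is part of each correlation, and all genes share the same libraries, so the values are descriptions. Closest to KTR2 were CPR6 (a cyclophilin that works with Hsp90) at 0.980, TEN1 (a telomere capping protein) at 0.977 and GPX1 (a glutathione peroxidase) at 0.971. Closest to KTR4 were GRS1 (glycyl-tRNA synthetase) at 0.968, NAM9 (a mitochondrial ribosomal protein) at 0.965 and CTR3 (a copper transporter) at 0.959. Closest to KTR1 were YGR201C at 0.986, ERG9 (squalene synthase) at 0.975 and LCB4 (a sphingoid base kinase) at 0.975. CPR6 had a log2 fold change of 0.53, ERG9 of -0.37 and CTR3 of -1.36, so genes with similar profiles differed in the size of their change.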

How the data were processed

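The authors deposited raw read counts per gene, made by trimming paired-end reads (fastp), aligning them with HISAT2 to build R64 and counting with featureCounts, per the submitters' processing notes and the labels. Libraries kept strand, per the labels, but the versions, annotation and strand setting of the counting are not given in the sources used here, so antisense reads may be included. Names, lengths and sequences came from RefSeq R64, which matched 6047 of 7192 identifiers, all 10 members included.

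The 6237 genes that reached 10 counts in 6 or more samples were fitted with DESeq2 1.42.0 (R 4.3.3; Wald test, median-of-ratios factors, Benjamini-Hochberg adjustment), the tool the design text names. edgeR 4.0.16, limma-voom (limma 3.58.1), other scalings and filters, a replicate block and leaving out each sample were alternatives. Fits were tested on simulated data. SE is the fitted standard error. Duplicate pairs were fitted with limma on log2 ratios of normalized counts (pseudocount 1). Proteins were translated from the reference and aligned with Biopython 1.88 and MAFFT 7.526, and nucleotide matches found with BLAST 2.17.0. The members and lists were chosen with earlier results of these data known. Named genes were the members, up to 4 called genes of largest change per list, the HOC1 complex partners and the 3 most similar genes for each of 3 members. PSA1 was added after its value was seen. Intervals of fold changes are 95% Wald intervals from the fit. Counting errors cover counting only, since PCR copies are not independent molecules.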

Additional observations from a re-analysis of the deposited data

Results flagged for a closer look

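Lectin 4 had 5748 normalized counts of KTR2, and the other 5 samples of its group had 5139 to 5239, a gap of 0.836 of the group's range and beyond Dixon's 95% limit. It was the 1 such sample among 26 groups of 6 values (10 genes and 3 ratios in each treatment group), where chance gives 1.3. Lectin 4 was also the highest lectin sample for KTR5, KTR6 and YUR1. Without lectin 4, the log2 fold change of KTR2 was 0.36.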

How the results depend on the processing

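Leaving out 1 sample at a time gave 5 to 7 called members (2 to 3 higher, 3 to 4 lower) and 1646 to 2419 called genes in all. KTR6 ran from 0.109 to 0.175 on the log2 scale and HOC1 from -0.13 to -0.104. The numbers 2, 3, 4, 6 and 8 occur in both groups, but same-numbered samples did not deviate together (correlations of -0.122 to 0.186, mean -0.0278, in 5 pairs, with 1 lectin sample closest to its own number). The labels do not state that equal numbers pair cultures, and these correlations cannot show whether they do. The 10 samples with these numbers leave out lectin 5 and control 7. With the number as a replicate block on those 10 samples, 1730 genes were called, against 2342 on the same samples without the block. With the block KTR6 was at 0.171 and called (DESeq2 adjusted p = 0.026), and HOC1 at -0.116 and not called (DESeq2 adjusted p = 0.127). On the same 10 samples without the block KTR6 was at 0.173 and also called (DESeq2 adjusted p = 0.00506), and HOC1 kept its call (DESeq2 adjusted p = 0.0235). MNN10 and PMT4 lost their call with the block (DESeq2 adjusted p = 0.0658 and 0.126) and not on those samples without it. MNN5, MNT3 and DPM1 gained a call on those 10 samples both with and without the block. With only lectin 5 left out, they were also called, at 0.124, 0.195 and -0.233 on the log2 scale. KTR6 was called in that fit too, at 0.175, and DPM1 was called without control 4 as well. The 3 duplicate ratios kept their call in every alternative run. The O-mannosylation list had 1 higher gene with the block, on the same 10 samples without it and without lectin 5, and 0 to 1 with any 1 sample left out. The median of the outer chain list was -0.037 with the block, -0.036 without it and -0.092 to -0.041 with 1 sample left out. The median of the mannose supply list was -0.203 with the block, -0.211 without it and -0.233 to -0.124 with 1 sample left out. The cause was not tested. No called member, ratio or list gene changed direction in any alternative.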
